A study of Mus musculus with 9 samples.

Results

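Monocytic myeloid-derived suppressor cells (M-MDSCs) sorted from MC38 tumours of LILRB4+/+ mice were compared with those of WT mice, MC38 being a mouse colon carcinoma line. The comparison takes the 3 libraries with the genotype LILRB4+/+ and the 3 with the genotype WT, which are 6 of the 9 libraries of the series, and describes them across all genes. The other 3 libraries, LILRB4+/+ SCG2-/-, entered the fits only to estimate the spread between replicates. All groups carried MC38 tumours, and total RNA of the sorted cells went through poly-A selection into strand-marking libraries. What the LILRB4+/+ allele is, which promoter drives it, the sorting gate, the age of the mice and whether animals were pooled are not stated in the labels. Library depth in the count table was 18936566, 23471040 and 18676591 for WT and 17175759, 24401452 and 27219202 for LILRB4 replicates 1 to 3.

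M-MDSCs are immature monocytes that gather in tumours and hold back T cells through arginine and cystine depletion, prostaglandins, reactive oxygen and cytokines. LILRB4 is an inhibitory receptor of myeloid cells whose cytoplasmic tail carries ITIMs, tyrosine motifs that recruit phosphatases. Its mouse counterpart is Lilrb4a, which lies beside Lilr4b, a gene of very similar sequence whose product lacks these motifs. In monocytes, NF-kB and AP-1 factors drive the early genes for chemokines and cytokines, and cell division and cholesterol synthesis have transcription programmes of their own.

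The 2 deposited tables were not equal at 56 of the 88893 values they share, in 47 genes, and this touches several cytokine genes below. Of these values 41 lay in LILRB4 replicate 1, and at all 41 the count table exceeded the whole counts recovered from the FPKM values. The difference was a multiple of 1000 at 37 of the 56 values, and in 6 genes the differing values were exchanged between a pair of libraries. For the 47 genes a change is stated only if the deposited counts and the recovered counts of all genes both passed. The count table also held, apart from S100a8, only protein-coding genes that reach 100 counts in both LILRB4 replicates 1 and 3, so genes low in those libraries were absent from it.

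The labelled cell type was checked against marker genes on the length-scaled FPKM of WT and LILRB4 libraries. Cd14 was listed at 886, 2528 and 1541 FPKM in WT and 1900.3, 2688 and 2234 in LILRB4 libraries, Csf1r at 91.8, 138 and 115 and 117, 189.6 and 98.2, and Ly6c2 at 36.7, 105 and 61.97 and 46.8, 51.3 and 50.8. The neutrophil marker Ly6g was listed at 0 in every LILRB4 library and in 2 of the 3 WT libraries. Genes used as fibroblast markers were present, with Fn1 at 257, 220.1 and 278 FPKM in WT and 292, 688 and 246 in LILRB4 libraries and Col3a1 at 157, 102 and 118 and 101, 94.2 and 121. In LILRB4 replicate 2 Fn1 was at its highest and Col3a1 at its lowest. Which cells these transcripts came from was not tested. Epcam, a carcinoma cell marker, was listed at 1.67, 0.265 and 0.572 FPKM in WT and 1.49, 0.103 and 1.78 in LILRB4 libraries. T and NK cell markers summed to 1278, 321 and 473 CPM in WT replicates 1 to 3 and to 2563, 339 and 1895 in LILRB4 replicates 1 to 3. LILRB4 replicates 1 and 3 and WT replicate 1 were thus the lymphocyte-rich libraries, and LILRB4 replicate 2 lay inside the range of WT replicates 2 and 3. The first principal component held 60.6% of the variance of the 6 libraries and placed LILRB4 replicates 1 and 3 at -44.7 and -24.3, WT replicate 1 at -5.14, and LILRB4 replicate 2 with WT replicates 3 and 2 at 17.2, 19.6 and 37.3, so it did not separate the genotypes. The second component, with 19.0% of the variance, did, with WT replicates 1 to 3 at -21.9, -3.17 and -9.56 and LILRB4 replicates 1 to 3 at 7.69, 28.8 and -1.78.

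The receptor genes were examined first. Lilrb4a (chromosome 10, 51490956 to 51496611 on GRCm38) stood at 767, 256 and 397 CPM in WT replicates 1 to 3 and at 1459.9, 800.0 and 869 in LILRB4 replicates 1 to 3, CPM being counts scaled to a common library total after TMM. LILRB4 replicate 2 lay just above WT replicate 1, the groups did not overlap, and the difference did not pass the test across all genes (log2 fold change 1.14, SE 0.37, edgeR adjusted p = 0.115). Lilr4b next to it stood at 1671, 767 and 833 against 3549, 1767 and 2547 CPM, with the same order of the libraries at the border of the groups, and did not pass either (log2 fold change 1.26, SE 0.33, edgeR adjusted p = 0.0652). Reads of these similar genes may be divided between them unevenly. The 4 other tested genes within 2 Mb of them, Ascc3, Gopc, Nus1 and Cep85l, were not called. Scg2, which encodes the granin secretogranin 2, had 1, 0 and 0 recovered counts in WT and 1, 0 and 0 in LILRB4 libraries, so no difference was detectable at this depth.

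With TMM scaling, more genes were called higher than lower. Across the 9877 genes of the count table, 171 were higher in LILRB4 than in WT libraries (1.73% of those tested) and 51 were lower (0.516%), 2.25% in either direction, by edgeR's quasi-likelihood test at a Benjamini-Hochberg adjusted p under 0.05. Among the fixed lists, growth factors and interleukins held the most higher genes, 7 of 17 measured, and mitosis genes the most lower ones, 8 of 30. By p the higher side was led by Ankrd33b, followed by Cdk5r1, Orai2, Osgin2 and Ptpre with equal edgeR adjusted p of 0.0138. In all 222 called genes the 3 LILRB4 values lay on 1 side of the 3 WT values, which held for 11.0% of all genes on the higher side and 15.5% on the lower. The median log2 fold change of the higher genes was 0.99, with 85 changed at least 2-fold and 5 at least 4-fold. Of the 171 higher genes, 8 had different values in the 2 deposited tables, and 2 of these 8 also passed with recovered counts of all genes. Il10, 1 of the 5, is among the 8 and did not pass there. The lower genes had a median of -0.78, and 3 changed at least 2-fold. The median over all genes tested was -0.02. At an unadjusted p under 0.05, 1113 genes were higher and 1117 lower. Apart from S100a8, genes had to reach 100 counts in LILRB4 replicates 1 and 3 to be in the count table. This limited how far a gene could fall and still be tested there. The sizes of higher and lower changes are therefore not on equal terms. Outside it, 12 higher and 5 lower genes were called on recovered counts, the lower ones at log2 -1.18 to -1.74. Each count of called list members below is to be read beside these shares of all genes, 1.73% higher and 0.516% lower. Within a gene, values are given below for replicates 1 to 3, WT against LILRB4. The summed level of 15 fixed neutrophil markers, of which Ly6g was at or near 0, was also above WT in all 3 LILRB4 libraries. It stood at 152, 249 and 184 against 266, 397 and 281 CPM. This sum includes Retnlg and Hdc, which were themselves called higher, so it is not separate from the calls. Its part in these results was not tested.

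**Figure D1:**
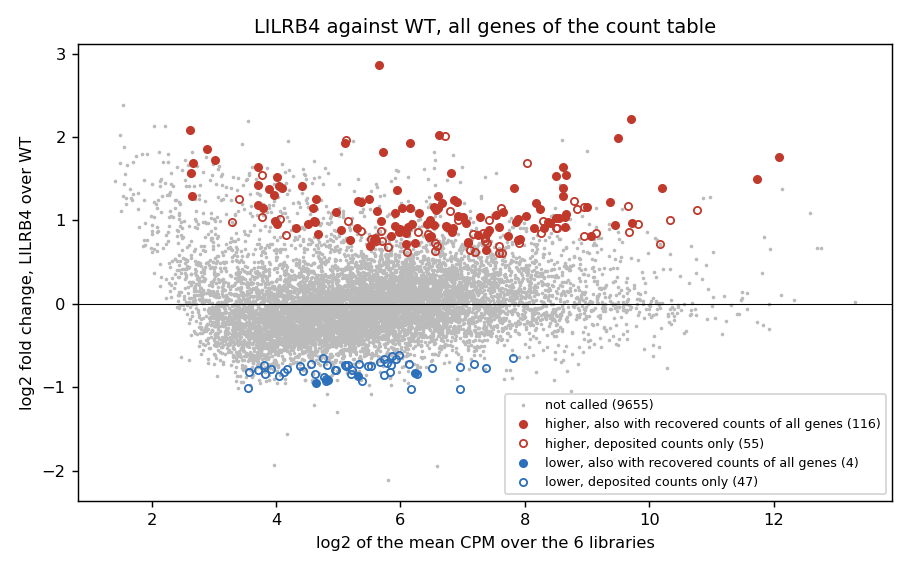
Log2 fold change of LILRB4 over WT (vertical axis) against the log2 of the mean CPM over the 6 libraries (horizontal axis) for the 9877 genes of the count table, 1 point per gene. Filled red and blue points mark the 116 higher and 4 lower genes that also passed with recovered counts of all genes, open points the 55 higher and 47 lower genes called with the deposited counts that did not pass there, and the higher genes reach larger fold changes than the lower ones.

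With recovered counts of all genes, 15743 genes were tested, and 128 were higher (0.813%) and 9 lower (0.0572%), 0.87% in either direction. Of the 171 higher genes 116 passed there too, and of the 51 lower genes 4 did. On the recovered counts of the same 9877 genes, 167 of the 171 and 34 of the 51 passed. With upper-quartile scaling in place of TMM the split moved from 171 higher and 51 lower genes to 136 and 128.

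The calls rested on few libraries. Without WT replicate 2 or without WT replicate 3, edgeR called no gene, with 1756 and 1626 genes at an unadjusted p under 0.05, and without WT replicate 1 it called 27 higher and 5 lower genes. Leaving out LILRB4 replicate 1 gave 8 higher and 0 lower genes, LILRB4 replicate 3 gave 14 and 0, and LILRB4 replicate 2 gave 541 and 148. Leaving out an SCG2 knockout library, which is in neither group compared, gave 158 and 29, 57 and 1, and 162 and 30. The sign of the fold change was the same for all 222 genes in each of these 9 fits. None of these genes overlapped between the groups, so leaving out a library could hardly change the sign, and this is no check of the calls. Every call from the deposited counts named below carries the limit that it was lost when WT replicate 2 or WT replicate 3 was left out. With the 6 LILRB4 and WT libraries alone in the fit, 69 genes were higher and 3 lower, and they included 67 of the 171 and 0 of the 51.

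**Figure D2:**
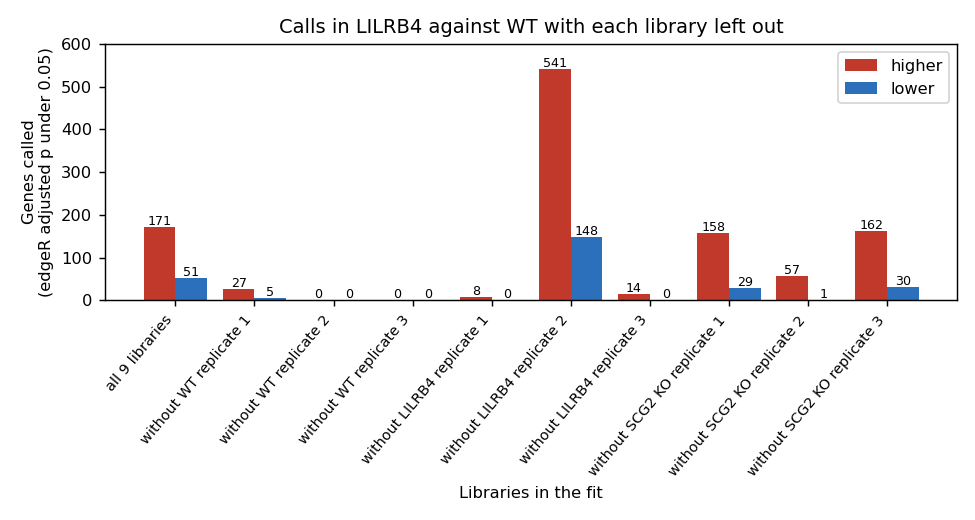
Number of genes called higher (red bars) or lower (blue bars) in LILRB4 than in WT libraries by edgeR at an adjusted p under 0.05, with all 9 libraries and with each library left out in turn. The bars fall from 171 and 51 to 0 without WT replicate 2 or 3 and reach 541 and 148 without LILRB4 replicate 2.

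The series title names the IL-6 and STAT3 pathway. Il6, the cytokine that signals through STAT3, rose in both tables. It stood at 1050, 1588 and 1009 counts in WT in both tables, and at 3097, 3344 and 4376 in LILRB4 libraries in the count table against 3097, 3344 and 6376 recovered. Its log2 fold change was 1.57 (SE 0.25, edgeR adjusted p = 0.0224) with the first and 1.78 (edgeR adjusted p = 0.0242) with the second. Of the 17 fixed genes of the IL-6 receptor family and the JAK-STAT3 pathway, all in the count table, 5 were higher and none was lower. Over all genes tested, 1.73% were called higher. A positive log2 fold change was found in 13 of the 17, with a median of 0.27, and 3 passed with recovered counts of all genes. Cish, a STAT5-induced feedback inhibitor, stood at 115, 142 and 100.5 CPM in WT against 299, 238 and 214 in LILRB4 libraries (log2 fold change 1.07, SE 0.20, edgeR adjusted p = 0.0284). Lifr, the receptor of leukaemia inhibitory factor, stood at 12.8, 16.8 and 16.8 against 30.4, 33.6 and 26.2 CPM (log2 fold change 0.96, SE 0.18, edgeR adjusted p = 0.0294). In both genes the highest WT value lay under the lowest LILRB4 value. Socs3, the feedback inhibitor of STAT3, and the kinase gene Jak2 were higher with the deposited counts (log2 1.13 and 0.91), at edgeR adjusted p of 0.0574 and 0.0590 with recovered counts of all genes. Stat3 itself had a log2 fold change of 0.92 from deposited and 0.77 from recovered counts and passed with neither, and the receptor chains Il6ra and Il6st stood at -0.01 and 0.08.

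Cxcl1, Cxcl2 and Cxcl3, whose products draw neutrophils through CXCR2, rose, and so did 6 growth factor and interleukin genes in both sources. Of the 20 fixed chemokine genes, 16 were in the count table and 4 were called higher, with a median log2 fold change of 0.91, and none was lower. On recovered counts of all 20 the median was 0.51, with 16 positive and 4 negative. Cxcl1, Cxcl2 and Cxcl3, which lie together on chromosome 5 between 90786103 and 90905938, were the 3 that passed in both sources. Cxcl2 stood at 1716, 2605 and 1664 CPM in WT against 7174, 5576 and 7498 in LILRB4 libraries (log2 fold change 1.76, SE 0.28, edgeR adjusted p = 0.0214). Cxcl3 stood at 330.4, 344 and 215 against 1477, 742 and 1899 CPM (log2 fold change 2.21, SE 0.39, edgeR adjusted p = 0.0277). Cxcl1 stood at 657, 809.8 and 499 against 1622, 1180.0 and 2338 CPM (log2 fold change 1.39, SE 0.29, edgeR adjusted p = 0.0382). In all 3 genes LILRB4 replicate 3 was the highest library and LILRB4 replicate 2 the lowest of its group, still above every WT library. Ccl3 and Ccl4, which attract monocytes and lymphocytes, stood at log2 1.84 and 1.96 without passing (edgeR adjusted p = 0.0636 and 0.0750). Ccl2 and Ccl7, ligands of CCR2, stood at 0.32 and 0.31, and the interferon-induced Cxcl9 and Cxcl10 at -0.71 and 0.07. Ccl9 had different values in the tables and passed with the count table alone.

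The stretches of 150 bases before the start of the 3 CXC genes, and of Il6, are shown because each holds a match to the NF-kB consensus, GGGA and TTCC with any 2 bases between them. Sequences are from RefSeq on GRCm38.p6, 5′ to 3′ on the strand of the gene, with the match in capitals.
Cxcl1 (chr5:90891095-90891244, + strand): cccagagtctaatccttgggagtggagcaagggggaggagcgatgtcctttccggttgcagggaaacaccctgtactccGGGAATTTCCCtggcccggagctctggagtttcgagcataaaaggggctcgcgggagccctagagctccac
Cxcl2 (chr5:90903749-90903898, + strand): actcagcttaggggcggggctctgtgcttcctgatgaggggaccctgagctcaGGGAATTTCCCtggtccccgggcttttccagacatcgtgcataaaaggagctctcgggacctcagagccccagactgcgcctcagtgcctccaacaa
Cxcl3 (chr5:90785951-90786100, + strand): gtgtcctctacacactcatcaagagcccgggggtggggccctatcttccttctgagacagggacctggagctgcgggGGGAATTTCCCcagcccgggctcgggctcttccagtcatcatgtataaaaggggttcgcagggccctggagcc
Il6 (chr5:30012964-30013113, + strand): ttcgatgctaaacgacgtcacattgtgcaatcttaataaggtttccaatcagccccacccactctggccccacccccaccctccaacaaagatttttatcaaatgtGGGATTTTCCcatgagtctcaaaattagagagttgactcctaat
The run GGGAATTTCCC in the CXC genes starts 71, 97 and 73 bases before the start of Cxcl1, Cxcl2 and Cxcl3, and the match of Il6 starts 44 bases before. Read on both strands, the palindromic run counts as 2 overlapping matches. In windows from 250 bases before to 50 after each start, the motif was present in 7 of 191 windows of higher genes (3.66%), in 0 of 52 windows of lower genes and in 1.56% of 10092 windows of all tested genes. RefSeq windows were found for 133 of the 171 higher genes and 43 of the 51 lower genes. The AP-1 motif TGANTCA was in 11.0% of windows of higher genes, 3.85% of windows of lower genes and 5.23% of windows of all tested genes. These are descriptions of sequence, and binding was not measured.

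Of the 20 fixed growth factor and interleukin genes, 17 were in the count table and 7 were called higher, with a median of 1.26. With recovered counts 6 of 20 passed and the median was 1.09. Csf3, the gene of G-CSF, which drives neutrophil production, had the largest change among the called genes of the count table. It stood at 14, 10.7 and 11.6 CPM in WT against 79.01, 55.4 and 130.2 in LILRB4 libraries (log2 fold change 2.87, SE 0.44, edgeR adjusted p = 0.0269), so its lowest LILRB4 value was several times its highest WT value. Il1a, an alarm cytokine, stood at 325, 333 and 209.6 against 1051, 933 and 1473 CPM (log2 fold change 1.99, SE 0.34, edgeR adjusted p = 0.0269). Il12a, which encodes the p35 chain of IL-12, stood at 2.58, 2.65 and 1.74 against 14.02, 4.65 and 11.2 CPM (log2 fold change 2.09, SE 0.40, edgeR adjusted p = 0.0323). LILRB4 replicate 2 had the lowest of the LILRB4 values for Csf3, Il1a and Il12a. Il23a, which encodes the p19 chain of IL-23, stood at 43.6, 44.1 and 28.1 against 155, 94.8 and 223 CPM (log2 fold change 2.03, SE 0.37, edgeR adjusted p = 0.0323). Il12b, the chain shared by IL-12 and IL-23, stood at log2 1.26 without passing (edgeR adjusted p = 0.300). Tnf had different values in LILRB4 replicate 1, 9905 counts deposited and 6905 recovered, and rose in both sources (1.55 and 1.41, edgeR adjusted p = 0.0228 and 0.0398). Il10 passed in the count table (2.01) and, for the same genes, on recovered counts (edgeR adjusted p = 0.0487) but not with those of all genes (2.50, edgeR adjusted p = 0.0656), where LILRB4 replicate 3 stood at 9349 counts in place of 4349. Il1b stood at 1.38 and 1.03 and passed with neither. Inhba, which encodes the activin A subunit and was chosen after its values were seen, stood at 224, 213 and 243 against 550.0, 446 and 676 CPM (log2 fold change 1.30, SE 0.23, edgeR adjusted p = 0.0277).

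**Figure D3:**
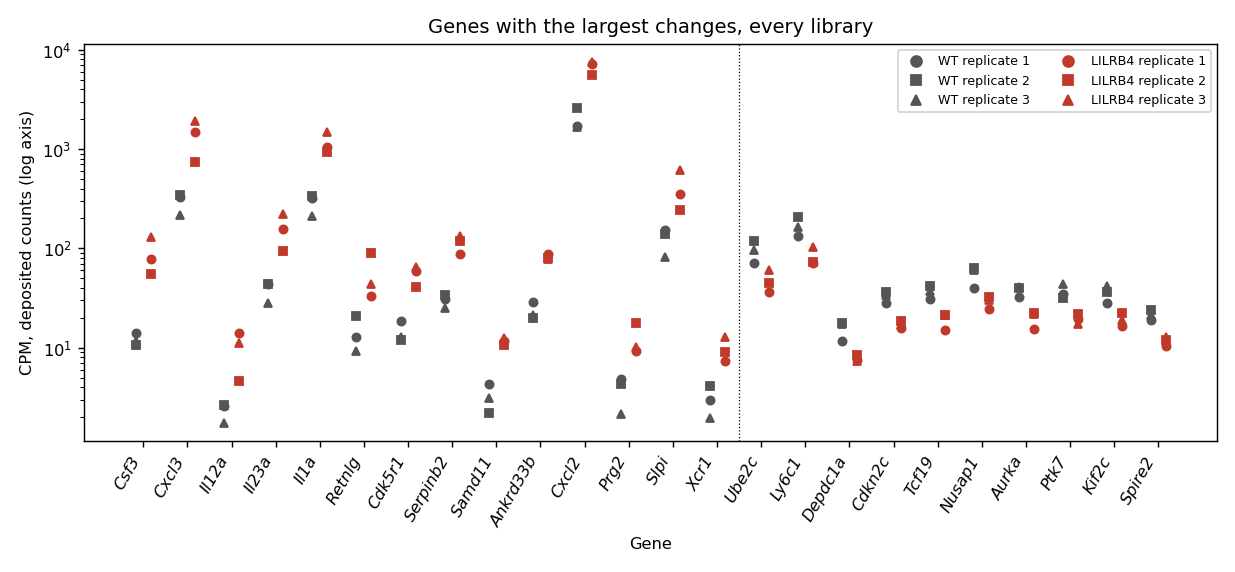
CPM of the deposited counts on a log axis for genes with the largest changes among those called, 14 higher genes left of the dotted line and 10 lower genes right of it, with 1 point per library (WT grey, LILRB4 red, marker shape by replicate number). In each gene the 3 red points lie on 1 side of the 3 grey points, and Csf3 shows the widest gap, from at most 14 CPM in WT to at least 55.4 in LILRB4.

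NF-kB subunit and inhibitor genes were shifted upward as a list, with few single calls. Of the 18 fixed genes, all in the count table, 4 were called higher and 17 had a positive log2 fold change, with a median of 0.67. On the recovered counts 14 of 18 had all 3 LILRB4 values above all 3 WT values, which held for 10.5% of all genes tested there. Nfkbiz, the atypical inhibitor IkB-zeta, stood at 534, 437 and 466 CPM in WT against 1041, 762 and 967 in LILRB4 libraries (log2 fold change 0.95, SE 0.17, edgeR adjusted p = 0.0284). Zc3h12a, which encodes the RNA-degrading enzyme regnase-1, stood at 179, 214 and 195 against 357, 412 and 334 CPM (log2 fold change 0.91, SE 0.16, edgeR adjusted p = 0.0277). Both passed in both sources, with the groups apart. Nfkb1 and Rel, subunits of the factor, passed with the deposited counts (log2 1.17 and 0.91) and had edgeR adjusted p of 0.0516 and 0.0535 with recovered counts of all genes. Tnfaip3, which encodes the brake A20, stood at 1.29 without passing (edgeR adjusted p = 0.0644). Cyld, a deubiquitinase that restrains the pathway, stood at -0.02. Malt1, the paracaspase that activates NF-kB and is not in the list, was chosen after its values were seen and stood at 376, 365 and 443 against 1124, 806 and 833 CPM (log2 fold change 1.22, SE 0.19, edgeR adjusted p = 0.0214).

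The kinase genes Ripk2 and Irak2, which act below innate receptors, rose in both sources. Of 29 fixed genes of pattern recognition and the MyD88 pathway, 26 were in the count table, 5 were called higher and none lower, with a median of 0.59. Over all genes tested, 1.73% were called higher. On recovered counts of all 29 the median was 0.47. Ripk2, the kinase that relays NOD signals, stood at 40.97, 50.01 and 42.7 CPM in WT against 80.2, 79.9 and 88.4 in LILRB4 libraries (log2 fold change 0.89, SE 0.14, edgeR adjusted p = 0.0224). Irak2, a kinase of the MyD88 complex, stood at 161, 194 and 182 against 369, 281 and 274 CPM (log2 fold change 0.78, SE 0.15, edgeR adjusted p = 0.0324). Neither gene overlapped between the groups, and both passed in both sources. Traf6, Irak3 and the inflammasome gene Nlrp3 passed with the deposited counts but not with recovered counts of all genes (log2 0.70, 0.99 and 1.16). None of the 8 measured Toll-like receptors was called. Tlr2, Tlr4 and Tlr9 stood at 0.39, 0.28 and 0.59, and Myd88 itself at -0.01. Tbk1, a kinase upstream of interferon that was chosen in the same way, stood at 69.2, 61.00 and 66.7 against 127, 106 and 113 CPM (log2 fold change 0.81, SE 0.13, edgeR adjusted p = 0.0214).

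Enzymes and transporters by which M-MDSCs are known to restrain T cells were partly higher. Of 19 fixed genes of arginine, prostaglandin and cystine use, 18 were in the count table and 4 rose, all of them in both sources, with none lower and a median of 0.37. Ptgs2, which encodes cyclooxygenase 2, stood at 1538, 1853 and 1976 CPM in WT against 5665, 4154 and 5323 in LILRB4 libraries (log2 fold change 1.496, SE 0.23, edgeR adjusted p = 0.0214). Slc7a11, the cystine importer, stood at 161, 189 and 222 against 768, 471 and 535 CPM (log2 fold change 1.64, SE 0.24, edgeR adjusted p = 0.0214). Arg2, the mitochondrial arginase, stood at 31.3, 49.7 and 34.6 against 80.8, 79.3 and 85.98 CPM (log2 fold change 1.09, SE 0.21, edgeR adjusted p = 0.0323). Slc7a2, an arginine importer, stood at 246, 172 and 235 against 759, 313 and 633 CPM (log2 fold change 1.38, SE 0.29, edgeR adjusted p = 0.0393), with LILRB4 replicate 2 much nearer to WT than the other LILRB4 libraries. The genes most often used to mark suppression were not called. Arg1 had a log2 fold change of 0.72 from deposited and 0.43 from recovered counts, where LILRB4 replicate 1 had 26183 and 15191 counts, and Nos2 stood at 0.23 and 0.12. The NADPH oxidase gene Cybb stood at 0.78 (edgeR adjusted p = 0.0599). Slc7a11 was also the 1 member called of 21 measured NRF2 and glutathione genes, whose median was -0.09. Acod1, which encodes the itaconate-producing enzyme and is outside these lists, stood at 240.1, 167 and 148 against 618, 335 and 657 CPM (log2 fold change 1.54, SE 0.28, edgeR adjusted p = 0.0277).

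A prostaglandin E2 receptor gene, Ptger2, and an adenosine receptor gene, Adora2a, rose. Of 17 genes of lipid mediator and G protein receptors in the count table, 2 were called higher and all 17 had a positive log2 fold change, with a median of 0.72. On recovered counts of all 19 in the list the median was 0.73, with 18 positive and 1 negative. Entry to the count table depended on the level in LILRB4 libraries. Ptger2, the EP2 receptor, stood at 12.2, 14.4 and 8.57 CPM in WT against 35.04, 23.2 and 35.6 in LILRB4 libraries (log2 fold change 1.41, SE 0.25, edgeR adjusted p = 0.0269). Adora2a, an adenosine receptor, stood at 61.9, 64.9 and 54.8 against 164, 95.7 and 143 CPM (log2 fold change 1.15, SE 0.20, edgeR adjusted p = 0.0269). Ptger4, the EP4 receptor, had a log2 fold change of 0.46 (edgeR adjusted p = 0.353). Sphk1, a kinase that makes sphingosine 1-phosphate, stood at 36.2, 40.4 and 26.4 against 80.2, 87.8 and 97.1 CPM (log2 fold change 1.36, SE 0.22, edgeR adjusted p = 0.0228), and S1pr3, a receptor for it, at 18.5, 13.5 and 12.8 against 28.4, 39.9 and 31.2 CPM (log2 1.15). S1pr2, another receptor of this lipid, was lower, at 45.04, 60.2 and 45.5 against 27.2, 33.7 and 30.3 CPM (log2 -0.72, edgeR adjusted p = 0.0481, and 0.0776 with recovered counts of all genes). Sphk1, S1pr3 and S1pr2 were chosen after their values were seen.

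Among 23 receptors of colony-stimulating factors and interleukins, all in the count table, 4 were called higher, none lower and 21 had a positive sign, with a median of 0.51. Over all genes tested, 1.73% were called higher. Csf2rb2 and Csf2rb, the beta chains that serve GM-CSF and IL-3 and lie side by side on chromosome 15, were both higher. Csf2rb2 stood at 214, 229 and 222 against 568, 359 and 389.5 CPM, and Csf2rb at 501, 642 and 595 against 1210.1, 1060.0 and 884 CPM. Their log2 fold changes were 0.98 and 0.86 (SE 0.19 and 0.19, edgeR adjusted p = 0.0323 and 0.0428), and their similar sequences may share reads. Il17ra, a chain of the IL-17 receptor, is among the 4 but had different values in LILRB4 replicate 1, 3926 counts deposited and 2926 recovered, and failed the recovered test of all genes, at an edgeR adjusted p of 0.0802. Csf2rb2 was the 1 member that also passed with recovered counts of all genes. Tnfrsf1b, which encodes TNF receptor 2, stood at 588, 669 and 588 against 1353, 911 and 1323 CPM (log2 fold change 0.96, SE 0.21, edgeR adjusted p = 0.0436). Csf1r and Csf3r, the receptors of M-CSF and G-CSF, stood at 0.20 and 0.20. Of 23 measured surface receptors and checkpoint molecules of MDSCs, Cd33, a sialic acid receptor, was the 1 called, at 48.3, 48.01 and 36.2 against 101, 109 and 82.6 CPM (log2 fold change 1.15, SE 0.20, edgeR adjusted p = 0.0269). Cd274, which encodes PD-L1, stood at 1.01 without passing (edgeR adjusted p = 0.0609).

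Survival genes that NF-kB is known to induce were higher next to 1 that promotes death. Of 21 fixed genes, all measured, 3 rose and none fell, with a median of 0.30, where 1.73% of all genes tested were called higher. Cflar, the caspase-8 inhibitor c-FLIP, stood at 311, 288 and 348 CPM in WT against 813, 620.4 and 681 in LILRB4 libraries (log2 fold change 1.16, SE 0.16, edgeR adjusted p = 0.0174). Birc3, the inhibitor cIAP2, stood at 107, 131 and 125 against 255, 214 and 202 CPM (log2 fold change 0.89, SE 0.16, edgeR adjusted p = 0.0277). Bcl2l11, which encodes the death-promoting protein BIM, stood at 182, 141 and 146 against 351, 255 and 323 CPM (log2 fold change 0.99, SE 0.17, edgeR adjusted p = 0.0269). All 3 passed in both sources. The near-identical Bcl2a1a, Bcl2a1b and Bcl2a1d stood at 0.95, 1.05 and 0.93 without passing.

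A few members of the other signalling lists rose, where 1.73% of all genes tested were called higher. Of 17 measured potassium and calcium channels, Orai2, a pore subunit of store-operated calcium entry, stood at 59.2, 54.5 and 58.5 CPM in WT against 146, 126 and 113 in LILRB4 libraries (log2 fold change 1.16, SE 0.15, edgeR adjusted p = 0.0138), and Kcnj2, an inward rectifier, at 11.1, 8.38 and 7.62 against 22.02, 28.1 and 21.9 CPM (log2 fold change 1.41, SE 0.19, edgeR adjusted p = 0.0174). The spread within each group was small in Orai2. Of 23 immediate-early factors, Nr4a3 and Egr3 rose, by 1.05 and 0.89 (SE 0.16 and 0.15), while Fos and Jun stood at -0.25 and -0.24. Of 16 measured phosphatases and inhibitors of MAP kinases, Dusp16 rose, at 77.5, 76.6 and 85.1 against 155, 144 and 152 CPM (log2 fold change 0.92, SE 0.13, edgeR adjusted p = 0.0174), and Dusp1 stood at 0.17. Of 21 genes of matrix proteases and the plasminogen system, 3 were called, of which Mmp12 had different values in the tables and did not pass with recovered counts. Serpinb2, the plasminogen activator inhibitor PAI-2, stood at 30.6, 33.7 and 25.2 against 86.9, 119 and 133 CPM (log2 fold change 1.92, SE 0.27, edgeR adjusted p = 0.0174), and F3, tissue factor, at 9.19, 4.702 and 5.13 against 17.2, 18.3 and 23.98 CPM (log2 fold change 1.65, SE 0.27, edgeR adjusted p = 0.0228). Mmp9 differed between the tables and passed with neither, at 0.80 and 0.42. Hk2, which encodes hexokinase 2, was called higher in both sources (log2 0.76) among 25 measured glycolysis and hypoxia genes with a median of -0.14. Bhlhe40 of the same list was called higher with the deposited counts (log2 0.72, edgeR adjusted p = 0.0499). Its edgeR adjusted p was 0.0599 with recovered counts of all genes.

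**Figure D4:**
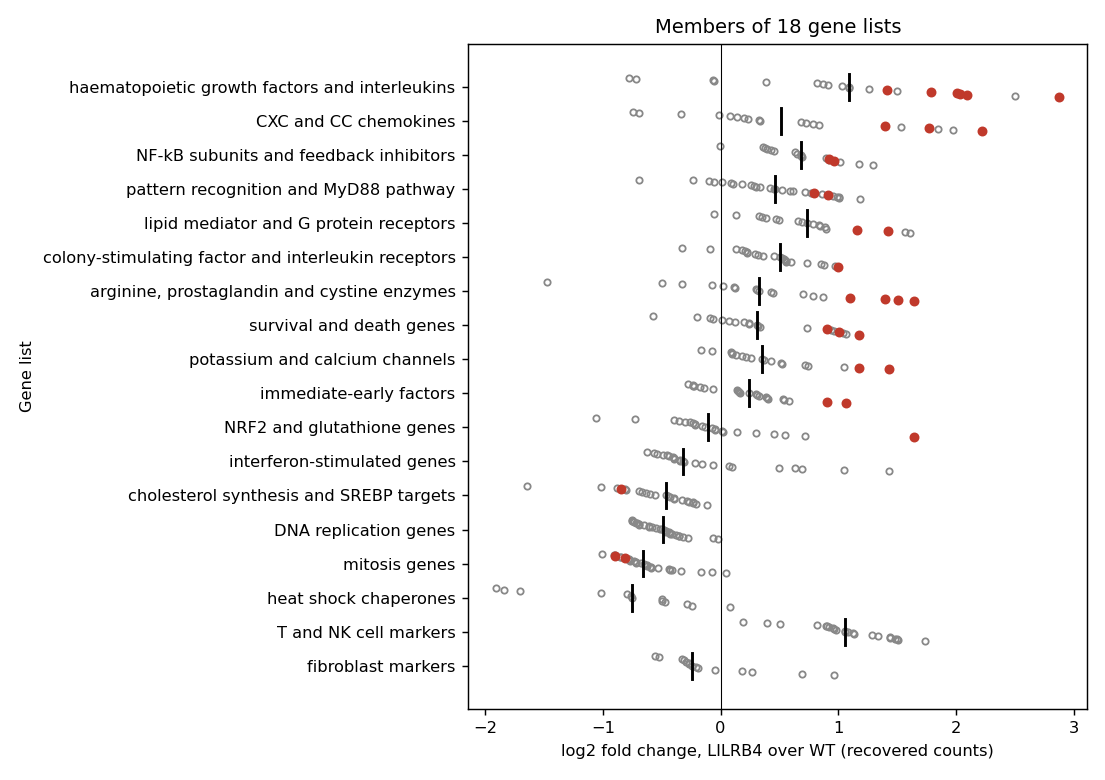
Log2 fold change of LILRB4 over WT from recovered counts (horizontal axis) for the members of 18 fixed gene lists (vertical axis), with 1 circle per gene, filled red where the gene passed edgeR at an adjusted p under 0.05, and a black bar at the list's median. The growth factor, chemokine and NF-kB lists sit right of 0, the mitosis, DNA replication and cholesterol lists sit left of it, and the T and NK cell markers sit right of 0 with no gene called.

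Several of the largest changes lay in genes of no fixed list. Ankrd33b had the smallest p of all genes. It stood at 28.7, 19.8 and 21.5 CPM in WT against 87.1, 80.6 and 78.5 in LILRB4 libraries (log2 fold change 1.82, SE 0.18, edgeR adjusted p = 0.00677), and was called by limma on FPKM as well. Cdk5r1, an activator of the kinase CDK5, stood at 18.4, 11.9 and 12.8 against 58.9, 40.6 and 64.3 CPM (log2 fold change 1.93, SE 0.24, edgeR adjusted p = 0.0138). Samd11 stood at 4.27, 2.22 and 3.09 against 11.7, 10.6 and 12.5 CPM (log2 fold change 1.86, SE 0.26, edgeR adjusted p = 0.0174). In these 3 genes the gap between the highest WT and the lowest LILRB4 library was wider than the range within WT. Ripor2 and Gpr55, a lysolipid receptor, stood at log2 1.52 and 1.42, and Ednrb, an endothelin receptor, at 1.54, with an edgeR adjusted p of 0.0555 for Ednrb with recovered counts of all genes. Setd5, a chromatin regulator, stood at 124, 94.6 and 158 against 417, 279.8 and 292 CPM (log2 fold change 1.39, SE 0.28, edgeR adjusted p = 0.0365).

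Genes known from granulocytes were among the higher ones. Retnlg, a resistin-like protein of neutrophils, stood at 12.9, 20.8 and 9.22 CPM in WT against 33.4, 90.7 and 43.4 in LILRB4 libraries (log2 fold change 1.97, SE 0.40, edgeR adjusted p = 0.0406), with LILRB4 replicate 2 the highest and an edgeR adjusted p of 0.0597 with recovered counts of all genes. Hdc, which encodes the histamine-making enzyme, stood at 25.7, 31.9 and 21.9 against 65.1, 55.6 and 69.8 CPM (log2 fold change 1.26, SE 0.20, edgeR adjusted p = 0.0214). Slpi, a secreted protease inhibitor, stood at 152, 139 and 81.8 against 349.6, 246 and 608 CPM (log2 fold change 1.69, SE 0.37, edgeR adjusted p = 0.0491), at an edgeR adjusted p of 0.0590 with recovered counts of all genes. Prg2 and Ccr3, known from eosinophils, were low in all libraries and higher in LILRB4. Prg2 stood at 4.87, 4.32 and 2.14 against 9.24, 17.9 and 10.2 CPM (log2 1.72) and Ccr3 at 3.48, 3.46 and 2.44 against 8.31, 11.8 and 7.78 CPM (log2 1.57). Of the 15 neutrophil markers 6 were in the count table, all with a positive log2 fold change and a median of 1.23, and Retnlg and Hdc were the 2 called. The deposited tables differed for 3 of the 6. On recovered counts 9 markers were tested, all positive, with a median of 0.55, and Hdc was the 1 that passed. S100a8 had 5 recovered counts in LILRB4 replicate 1 against 115 in the count table, and passed with neither source. Xcr1, a marker of cross-presenting dendritic cells, was the 1 called of 11 measured dendritic cell markers, at 2.98, 4.104 and 1.94 against 7.38, 9.003 and 12.7 CPM (log2 fold change 1.69, SE 0.32, edgeR adjusted p = 0.0323).

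Genes of cell division were lower in LILRB4 libraries. Of 30 fixed mitosis genes, all in the count table, 8 were called lower and none higher, 29 had a negative log2 fold change, and the median was -0.68. Ccna2 and Aurka were the 2 that also passed with recovered counts of all genes, where 24 of the 30 had all 3 LILRB4 values under all 3 WT values, against 12.8% of all genes tested. With the 6 LILRB4 and WT libraries alone none of the 8 passed, at edgeR adjusted p from 0.0647 for Ccna2 to 0.0934 for Prc1. Ube2c, which loads ubiquitin for the anaphase-promoting complex, stood at 71.95, 119.9 and 96.8 CPM in WT against 35.97, 45.3 and 60.9 in LILRB4 libraries (log2 fold change -1.02, SE 0.22, edgeR adjusted p = 0.0428). Ccna2, cyclin A2, stood at 83.97, 104 and 102 against 46.4, 59.5 and 56.8 CPM (log2 fold change -0.83, SE 0.15, edgeR adjusted p = 0.0277). Aurka, the spindle kinase Aurora A, stood at 32.4, 39.6 and 40.5 against 15.6, 22.2 and 21.98 CPM (log2 fold change -0.91, SE 0.17, edgeR adjusted p = 0.0309). WT replicate 1 was the lowest WT library and LILRB4 replicate 1 the lowest LILRB4 library for these 3 genes. Plk1, Bub1, Kif2c, Nusap1 and Prc1, which act on the spindle and at its checkpoint, were called lower with log2 fold changes of -0.79, -0.79, -0.87, -0.92 and -0.70. Mki67, which encodes the proliferation marker Ki-67, stood at -0.09 and Top2a at -0.55, and neither passed.

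DNA replication genes had smaller shifts of the same sign. Of 30 fixed genes, 26 were in the count table, all with a negative log2 fold change, and 3 were called lower, with a median of -0.50. On recovered counts 24 of the 30 lay under WT in all 3 LILRB4 libraries, against 12.8% of all genes tested, and none passed. With the 6 libraries alone the 3 had edgeR adjusted p from 0.0792 to 0.102. Mcm5, a subunit of the replicative helicase, stood at 179, 215 and 237 CPM in WT against 105, 136 and 128 in LILRB4 libraries (log2 fold change -0.77, SE 0.15, edgeR adjusted p = 0.0324). Rrm2, a subunit of ribonucleotide reductase, stood at 67.04, 76.8 and 72.6 against 36.8, 49.2 and 44.5 CPM (log2 fold change -0.73, SE 0.14, edgeR adjusted p = 0.0327). Uhrf1, which maintains DNA methylation behind the fork, stood at -0.75 (edgeR adjusted p = 0.0476). Among cell cycle inhibitors, Cdkn2c, which encodes p18 and blocks CDK4 and CDK6, was itself lower, at 27.9, 36.6 and 33.6 against 15.6, 18.4 and 16.98 CPM (log2 fold change -0.94, SE 0.16, edgeR adjusted p = 0.0233), and Cdkn1a and Cdkn1b stood at 0.10 and 0.21. Mdm2, a p53 target of the same list, was called higher with the deposited counts (log2 0.74, edgeR adjusted p = 0.0349). Its edgeR adjusted p was 0.0532 with recovered counts of all genes. Depdc1a, Cep55, Anln and Melk, which act in mitosis and are outside the lists, were also called lower with the deposited counts but not with recovered counts of all genes (log2 -1.01, -0.73, -0.72 and -0.79), of which Cep55, Anln and Melk were chosen after their values were seen.

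The stretches of 150 bases before the start of Ube2c, Cep55 and Prc1 are shown because the CHR element TTTGAA, known from promoters of cell cycle genes, lies within 33 bases of each start. Capitals mark it, and TTCAAA is the element on the other strand.
Ube2c (chr2:164769779-164769928, + strand): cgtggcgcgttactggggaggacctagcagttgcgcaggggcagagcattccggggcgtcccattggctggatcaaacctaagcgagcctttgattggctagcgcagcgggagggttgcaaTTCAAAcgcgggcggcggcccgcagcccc
Cep55 (chr19:38054891-38055040, + strand): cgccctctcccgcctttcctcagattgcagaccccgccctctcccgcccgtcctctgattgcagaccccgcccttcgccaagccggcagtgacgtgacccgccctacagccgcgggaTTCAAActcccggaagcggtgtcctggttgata
Prc1 (chr7:80294326-80294475, + strand): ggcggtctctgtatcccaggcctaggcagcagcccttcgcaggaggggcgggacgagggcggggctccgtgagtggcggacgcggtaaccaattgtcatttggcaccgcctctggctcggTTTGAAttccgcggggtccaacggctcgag
The element starts 29, 33 and 30 bases before the starts of the 3 genes. On both strands and in windows of the same length as before, TTTGAA was in 14 of 52 windows of lower genes (26.9%), 9.42% of windows of higher genes and 11.8% of windows of all tested genes. Over all 32851 windows of the table, expressed or not, the share was 17.9%.

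Cholesterol synthesis genes formed the other lower group. Of 23 fixed genes of the pathway and its SREBP-2 control, 21 were in the count table, none had a positive log2 fold change and 3 were called lower, with a median of -0.46. Idi1, the isomerase that makes dimethylallyl diphosphate, stood at 47.1, 48.2 and 58.6 CPM in WT against 24.3, 32.7 and 27.4 in LILRB4 libraries (log2 fold change -0.86, SE 0.16, edgeR adjusted p = 0.0320), and passed in both sources. Dhcr7, which completes the last step, stood at 42.4, 51.3 and 47.6 against 22.7, 31.5 and 24.9 CPM (log2 fold change -0.84, SE 0.17, edgeR adjusted p = 0.0349). Lss, lanosterol synthase, stood at 66.6, 64.8 and 74.4 against 37.9, 46.4 and 41.5 CPM (log2 fold change -0.71, SE 0.14, edgeR adjusted p = 0.0324). In all 3 genes LILRB4 replicate 1 was the lowest library, and with the 6 libraries alone their edgeR adjusted p were 0.0665 to 0.0736. Abca1, the cholesterol exporter, was called higher with the deposited counts, at 88.04, 109.9 and 167 against 328, 264 and 218 CPM (log2 fold change 1.15, SE 0.25, edgeR adjusted p = 0.0436), and had an edgeR adjusted p of 0.0574 with recovered counts of all genes. It was the 1 called of 14 measured genes of the separate cholesterol efflux list, of which 10 were positive and 4 negative, with a median of 0.10.

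The remaining lower genes with the largest changes had varied roles. Ly6c1, a Ly6C antigen of monocytes and endothelium, stood at 132, 205 and 164 CPM in WT against 71.3, 73.7 and 103 in LILRB4 libraries (log2 fold change -1.01, SE 0.23, edgeR adjusted p = 0.0456), and was the 1 called of 12 monocyte markers. Its neighbour Ly6c2, the antigen used to recognise inflammatory monocytes, differed between the tables and stood at -0.28 and -0.46 without passing. Reads of the Ly6c genes may be shared. Tcf19 stood at 30.6, 41.5 and 37.5 against 15.2, 21.2 and 21.1 CPM (log2 fold change -0.93, SE 0.18, edgeR adjusted p = 0.0344). Ptk7, a WNT co-receptor, stood at 34.6, 31.4 and 43.3 against 19.3, 22.03 and 17.3 CPM (log2 fold change -0.90, SE 0.18, edgeR adjusted p = 0.0359). Spire2, an actin nucleator, and Rin1, a RAS effector, were called at log2 -0.87 and -0.85. Amotl2, a regulator of YAP, stood at -0.84, Arpin, an inhibitor of the ARP2/3 complex, at -0.85, H2afy2, a macroH2A histone, at -0.84, and Eno3, an enolase, at -0.82. Tent5b and Lrp11 were called as well, both at -0.82. With recovered counts of all genes, the called genes of this paragraph had edgeR adjusted p from 0.0511 to 0.0781.

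Other fixed lists gave no call. None of 21 measured interferon-stimulated genes or 21 interferon-gamma response genes passed, with medians of -0.32 and -0.22. Within the first list Ifih1 and Oasl1 stood at 1.04 and 1.42. MHC class II genes had a median of -0.14, ribosomal protein genes of -0.04, nuclear respiratory chain genes of -0.15, lysosome and phagocytosis genes of -0.00 and macrophage markers of 0.03. All 10 measured mRNAs of the mitochondrial genome had positive log2 fold changes with a median of 0.72, and none passed. Heat shock chaperones had a median of -0.77 and none passed. Their summed CPM was 21989.8, 10841 and 11665 in WT and 9497, 8352 and 11982 in LILRB4 libraries, so WT replicate 1 lay far above the rest. Gapdh, a glycolytic enzyme often used as a reference, stood at 42.01, 249 and 158 against 55.1, 26.6 and 35.7 CPM on recovered counts (log2 fold change -1.94, edgeR adjusted p = 0.103). Its WT libraries ranged widely and overlapped the LILRB4 libraries.

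Summed levels of T and NK, B cell and fibroblast markers overlapped between the groups. Those of the neutrophil markers, given above, and of the 10 erythroid and platelet markers, at 65.3, 58.4 and 30.1 against 78.02, 95.5 and 175 CPM, did not overlap. The neutrophil sum includes the called genes Retnlg and Hdc, so it is not separate from those calls. None of the 10 erythroid and platelet markers was at 0 in all libraries, none was called, and their part in the results was not tested. All 23 T and NK cell markers had positive log2 fold changes on recovered counts, with a median of 1.06, yet none passed and none separated the groups. The 15 fibroblast markers summed to 8194, 6714 and 7659 CPM in WT and 6944, 11288 and 7223 in LILRB4 libraries, with LILRB4 replicate 2 the highest. Taken singly on recovered counts, 11 of the 15 had a negative and 4 a positive log2 fold change, with a median of -0.24, and none passed. B and plasma cell markers summed to 577, 77.3 and 113 against 798, 33.8 and 795 CPM. The mitosis list summed to 1835, 2081 and 2486 against 1319, 1616 and 1488 CPM and the chemokine list to 4999, 6508 and 4149 against 13422, 11215 and 16751 CPM, both without overlap. Both sums include genes called above, among them Cxcl1, Cxcl2 and Cxcl3, so they are not separate from those calls. In bulk RNA, more cells of a type and more RNA of these genes per cell cannot be told apart. When the T and NK marker level was added to the fit as a covariate, 304 genes were higher and 84 lower, and they included 165 of the 171 and 50 of the 51.

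**Figure D5:**
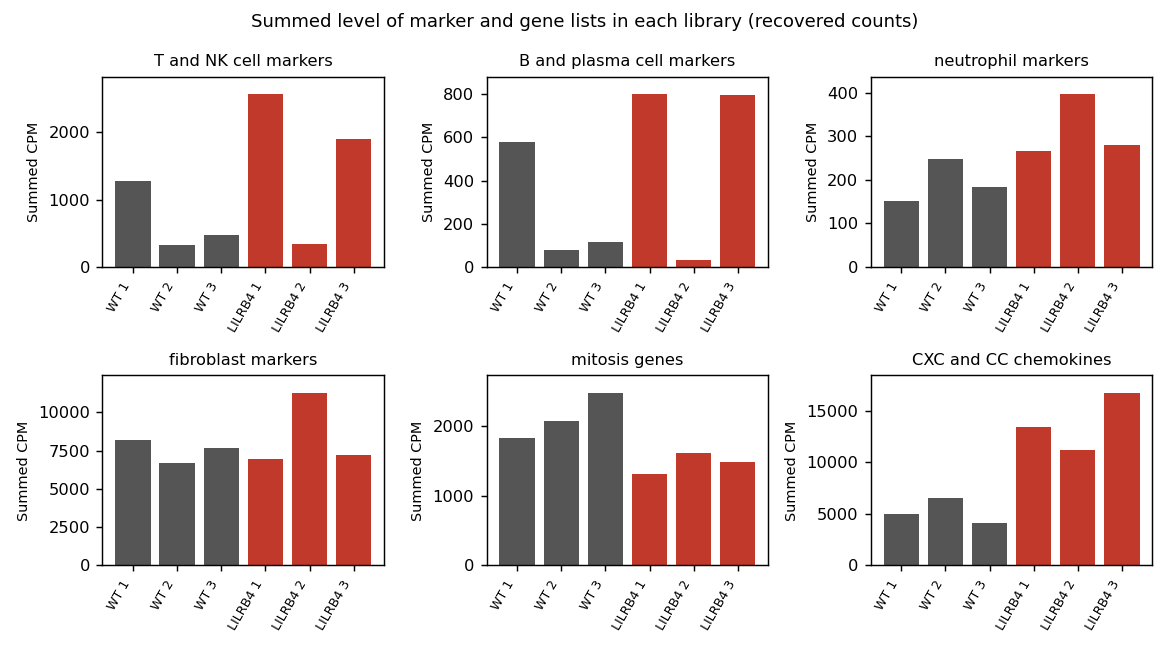
Summed CPM of recovered counts for 6 gene lists in each of the 3 WT (grey) and 3 LILRB4 (red) libraries, with 1 bar per library and each vertical axis from 0. The T and NK and the B cell bars are high in WT 1, LILRB4 1 and LILRB4 3 and low in the others, the mitosis bars are lower and the chemokine and neutrophil bars higher in all 3 LILRB4 libraries than in all 3 WT libraries. The mitosis, chemokine and neutrophil sums include genes called in these same libraries.

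Genes outside the count table were tested on the recovered counts. Of 5866 such genes, 12 were higher (0.205%) and 5 lower (0.0852%), 0.29% in either direction. Mir155hg, the host transcript of miR-155 (chromosome 16, 84703167 to 84715245), had 258, 159 and 87 recovered counts in WT and 614, 436 and 1030 in LILRB4 libraries (log2 fold change 2.03, SE 0.38, edgeR adjusted p = 0.0439). Gm14023 (chromosome 2, 129297370 to 129307826) had 195, 107 and 93 against 626, 577 and 723 counts (log2 fold change 2.29, edgeR adjusted p = 0.0204), and it also passed with limma on FPKM. Both lay without overlap above WT. Gm14023 overlaps Il1a, which lies at chromosome 2, 129299610 to 129309972 and rose as well. Il1bos, annotated antisense to Il1b, had 119, 97 and 88 against 314, 322 and 373 counts (log2 fold change 1.74). The labels do not state whether the authors counted by strand, so reads of Il1bos and Il1b, and of Gm14023 and Il1a, cannot be told apart with certainty. Calls outside the count table were not repeated with a library left out. Dach1, a transcription factor gene, had 25, 17 and 14 against 78, 160 and 92 counts (log2 fold change 2.53, edgeR adjusted p = 0.0242), and the integrin gene Itgb8, whose product activates TGF-beta, had 32, 24 and 28 against 95, 73 and 175. The immunoglobulin segment Ighv14-4 had 0, 0 and 0 counts in WT and 33, 21 and 21 in LILRB4 libraries. On the lower side, Epha8, an ephrin receptor, had 194, 293 and 216 against 39, 83 and 96 counts (log2 fold change -1.74, edgeR adjusted p = 0.0407), and Cdc42ep5, Fam180a, Klk10 and Plek2 stood at -1.53, -1.63, -1.32 and -1.18. Limma on log2(FPKM + 1) called 19 of 18904 genes higher (0.101%) and none lower, with 1348 lower genes at an unadjusted p under 0.05, and 13 of the 19 were among the 171.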

How the data were processed

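RNA of sorted M-MDSCs was sequenced in 3 WT, 3 LILRB4+/+ and 3 LILRB4+/+ SCG2-/- libraries, grouped by the labelled genotype. The authors deposited whole-number counts for 9877 genes and FPKM values (fragments scaled to gene length and library size) for 54532 genes. The library scaling of the FPKM values was proportional to DESeq2 size factors of the recovered counts. It deviated from library totals by up to 8.35%. HISAT2 2.0.5 and featureCounts 1.5.0-p3 are listed, per the submitters' processing notes. No label states the genome build, annotation or strand setting, and 98.3% of the gene IDs had the same coordinates as on GRCm38. Deposited FPKM multiplied by gene length and a constant per library gave whole numbers for every value within 0.01 and so recovered the counts of all genes.

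The main test was edgeR 4.0.16 (robust quasi-likelihood, TMM scaling, filterByExpr with a minimum count of 10) on the deposited counts of all 9 libraries, with 6 residual degrees of freedom and a Benjamini-Hochberg adjusted p threshold of 0.05. The log2 fold changes computed from the deposited counts are LILRB4 over WT. limma 3.58.1 was run on log2(FPKM + 1) of genes with a mean FPKM of at least 0.1, so its fold changes understate those of low genes, and DESeq2 1.42.0 was an alternative (R 4.3.3). The edgeR and limma fits were tried on simulated data. In counts simulated at the fitted spread, edgeR recovered 6% of changes of 1.5-fold, 64% of 2-fold, 96% of 3-fold and 92% of 4-fold. Small changes could thus be missed. A count of 3, the floor used here, is worth 0.107 to 0.172 CPM in the 6 libraries.

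Named genes were the receptor and pathway genes, the 30 higher and 20 lower called genes with the largest log2 fold change and no overlap between the groups, up to 10 per direction outside the count table, and of each fixed list the called members or else up to 4 of smallest p. Not all of those outside the count table, or of the members that did not pass, are given above. Other list members that did not pass, and a few called genes said to be so, were chosen after their values were seen. The groups compared and the gene lists were chosen with earlier results of these data known. Nothing says that replicates came from separate animals, so p-values reflect the spread of these libraries, whose source may be technical only. No pair of libraries held equal counts for more than 0.364% of genes. Intervals were not computed, and promoter sequences were RefSeq's.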

Additional observations from a re-analysis of the deposited data

How the results depend on the processing

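With all 9 libraries the deposited counts gave 171 higher and 51 lower genes. DESeq2 gave 612 and 312, and the fit of the 6 LILRB4 and WT libraries alone gave 69 and 3, of which 67 and 0 were among the 171 and 51. Recovered counts of all genes gave 128 and 9, and upper-quartile scaling gave 136 and 128. Adding the T and NK marker level as a covariate, chosen after seeing the data, gave 304 and 84, and turned the median of the dendritic cell markers from 0.78 to -0.02. With the replicate number as a block, 1 gene was higher (Ankrd33b) and 0 lower, and limma on FPKM gave 0 and 0. Same-numbered LILRB4 and WT libraries deviated together with r = 0.66, 0.54 and -0.45, and LILRB4 replicate 3 correlated best with WT replicate 1, so the numbers were not taken to pair the samples. Leaving out 1 library gave between 0 and 541 higher and between 0 and 148 lower genes. Without WT replicate 2 the smallest edgeR adjusted p was 0.0568, and without WT replicate 3 it was 0.0871. Limma-voom, other count filters and relative log expression scaling stayed within 1.5 times of both counts. The 91 named genes that were called kept their sign under every alternative of the count fit that tested them. Their deposited values did not overlap between the groups, so the sign could hardly change where a library was left out or the scaling altered. The fit that left out the 47 genes with unequal tables tested 85 of the 91. For limma on FPKM, 19 higher and 0 lower genes became 42 and 1 with a pseudocount of 0.1, 31 and 0 with 0.5, 91 and 11 with a mean FPKM of at least 1, 0 and 0 without a filter or with the 6 libraries alone, and 128 and 9 with edgeR on recovered counts. Leaving out 1 library gave between 0 and 89 higher and between 0 and 5 lower genes there. The cause of these changes was not tested. Counts near 100 in a library set the lower limit of the count table, and Scg2 was under the floor of 3 counts in every WT and LILRB4 library.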

Other observations

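LILRB4 replicate 1 was the highest LILRB4 library in 97 of the 171 higher genes, replicate 2 in 31 and replicate 3 in 43. Among the 51 lower genes, LILRB4 replicate 1 was the lowest in 48, replicate 2 in 0 and replicate 3 in 3. The median log2 ratio over the WT mean was 1.16, 0.87 and 0.94 in LILRB4 replicates 1 to 3 for the higher genes, and -1.002, -0.68 and -0.72 for the lower genes. Since the genes were chosen for their difference between these libraries, the values are a description.

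Of the 171 higher genes 53 belonged to a fixed list, and of the 51 lower genes 16 did. A higher member was found in 20 of the 42 lists and a lower member in 5, and 18 lists held none.

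Several called genes were neighbours within 200 kb of each other, from the coordinates of the files. Beside the Cxcl3, Cxcl1 and Cxcl2 group and the Csf2rb2 and Csf2rb pair, both members of Xcr1 and Ccr3, Kctd12 and Acod1, Osgin2 and Ripk2, Rapgef2 and Fnip2, Sphk1 and Rhbdf2, Met and St7, and Alpk2 and Malt1 were higher. Neighbours went opposite ways at Prc1, which was lower, and Furin, which was higher, and at Plk1, which was lower, and Prkcb, which was higher. On chromosome 7 the decoy receptor gene Tnfrsf22 was lower beside Dhcr7, and Tnfrsf26 next to them was higher. None of the 293 genes tested on the X chromosome was called by edgeR, where 56 had an unadjusted p under 0.05, and DESeq2 called 16.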
